A study of Mus musculus with 2 samples.

Results

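The 10 genes described here are Ppara, Ppard, Fabp4, Fabp5, Cebpa, Cebpb, Lpl, Cd36, Plin2 and Acsl1, a set of PPAR receptors, C/EBP transcription factors and lipid handling genes. They were taken as every non-control probe that carries one of these gene names on the array, which gave 14 probes of 39429, and all 10 genes were among the 21977 genes tested. Transcripts were measured in ureters of mouse embryos at stage E14.5 on an NMRI strain background. Embryos called Bmp4cKO had the genotype Tbx18(cre/+);Bmp4(fl/fl), in which cre sits at the Tbx18 locus and so acts in Tbx18-expressing cells of the mesenchyme, and Bmp4 is a secreted bone morphogenetic protein. Controls had Tbx18(+/+);Bmp4(fl/?), so both genotypes carried at least 1 floxed Bmp4 allele, the second allele of the control is not given, and only Bmp4cKO embryos carried the Tbx18(cre) allele. There were 2 two-colour arrays, each holding 1 RNA labelled Bmp4cKO and 1 labelled control, with the dyes exchanged between arrays. Replicate 1 was labelled female and replicate 2 male. The sources used here do not say whether each RNA came from 1 embryo or from several, so the p-values measure only the spread between these arrays, which may be technical.

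PPARs are nuclear receptors that bind fatty acids and their derivatives, pair with retinoid X receptors on DNA and switch on genes for lipid uptake, binding, storage and oxidation. PPARG is the master regulator of fat cell differentiation, where it acts together with C/EBP factors, and it is also a transcription factor of urothelial differentiation. Fabp4, Lpl, Cd36, Plin2 and Acsl1 are known PPAR target genes in fat cells, and Fabp4, Lpl and Cd36 are also made by endothelial cells, macrophages or muscle. The comparison therefore asked whether these lipid genes moved with the urothelial genes or with those of fat precursors.

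Each value below is the log2 ratio of Bmp4cKO-labelled over control-labelled RNA, with the direction taken from the dye labels, and n is 2 arrays. The targeted gene went against its label. Bmp4 had ratios of 3.04 and 3.71 on replicates 1 and 2, on average 3.38 ± 0.48 (SD over the 2 arrays; limma adjusted p = 0.016), from 1 of its 2 probes. Its other probe was not well above background in any of the 4 channels, and the sources used here do not say whether the measured probe targets sequence that the deletion removes. A probe outside the removed sequence might not show the deletion as a loss of signal. Why the measured probe read higher was not tested. Tbx18 was at 0.97 ± 0.17 (limma adjusted p = 0.040). The authors' deposited table has the opposite sign, with signed folds of -8.16 and -13.9 for Bmp4. Higher and lower below follow the dye labels and would turn with them. Whether a gene went with the Bmp4 probe or opposite to it would not turn. On replicate 2, which is labelled male in both channels, Xist read 2120.4 in Bmp4cKO-labelled RNA, where Ddx3y was not well above background. Control-labelled RNA had 85.2 for Xist and 2720.1 for Ddx3y, so the sex label of 1 RNA did not match. Genotype label and sex-linked signals thus differed together on replicate 2 and cannot be told apart there. On replicate 1, labelled female, Xist read 2347.7 in Bmp4cKO-labelled and 2794.4 in control-labelled RNA, with Ddx3y not well above background in either. Both arrays lay on 1 slide read in 1 scan. Between 68.4% and 73.9% of probes were well above background in a channel. Of all genes, 195 were higher and 225 lower (limma, adjusted p under 0.05).

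None of the 10 members passed the test (limma, adjusted p under 0.05), while Pparg was 4.83-fold higher in the RNA labelled Bmp4cKO, in the direction of Bmp4. Over all genes 1.91% were called. The genes called higher were 0.887% of all and those called lower 1.02%. At an unadjusted p under 0.05 there were 3 members, Cebpa and Plin2 on the side of Bmp4, where 7.15% of all genes reached that level, and Lpl opposite to it, where 7.37% did. No member was at least 2-fold changed in the same direction on both arrays, against 1.2% of all genes. The member means ran from -0.34 for Lpl to 0.71 for Cebpa. Their median was 0.24, or -0.01 on replicate 1 and 0.43 on replicate 2, beside -0.01 for all genes. On both arrays 4 members lay above 0 and 4 below it, beside 28.2% and 30.6% of all genes. The signs of 2, Fabp4 and Cebpb, were opposite, as for 41.2% of all genes. On each array the ratio of every member was at least 1.39 below that of Pparg. With median centring in place of loess 0 genes of the array were called (limma; 1760 at an unadjusted p under 0.05), and without normalization 1 was (108 unadjusted), so the calls of Pparg, Bmp4 and Tbx18 are lost there although their directions hold.

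**Figure D1:**
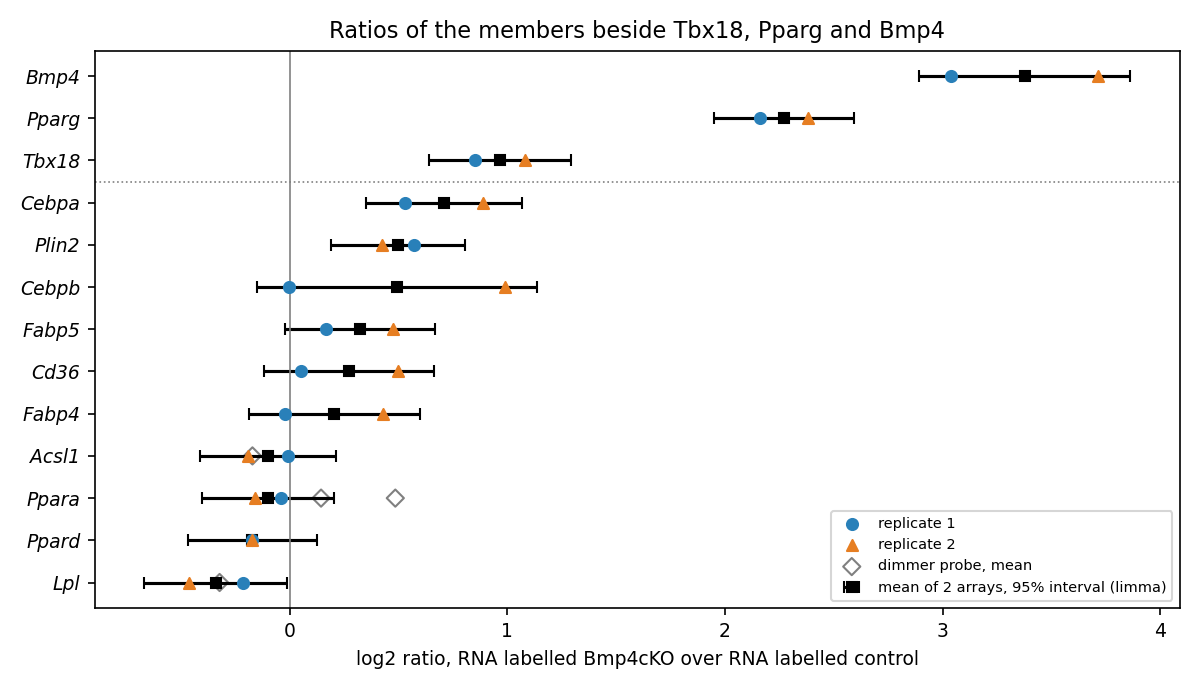
Log2 ratios of Bmp4cKO-labelled over control-labelled RNA for the 10 members, with Tbx18, Pparg and Bmp4 above the dotted line. Circles and triangles are the 2 arrays, squares their mean with the 95% interval of the limma fit, and open diamonds the means of dimmer probes of the same gene; the members lie between -0.34 and 0.71, and Pparg at 2.27.

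The promoters of Plin2, Cd36 and Cebpa are shown because Plin2 and Cebpa had the highest member means and Plin2 and Cd36 hold the receptor motif AGGTCA. Each run is the 250 bases before the start of a RefSeq transcript, from a table of build GRCm38.p6, 5′ to 3′ on the gene's strand, with matches to this motif on either strand in capitals. Plin2 is on chromosome 4 (chr4:86670060-86670309, minus strand), Cd36 on chromosome 5 (chr5:17835897-17836146, minus strand) and Cebpa on chromosome 7 (chr7:35119043-35119292, plus strand). Probe positions given further on are those of mm9, the build of the array files, and do not share these coordinates.
Plin2: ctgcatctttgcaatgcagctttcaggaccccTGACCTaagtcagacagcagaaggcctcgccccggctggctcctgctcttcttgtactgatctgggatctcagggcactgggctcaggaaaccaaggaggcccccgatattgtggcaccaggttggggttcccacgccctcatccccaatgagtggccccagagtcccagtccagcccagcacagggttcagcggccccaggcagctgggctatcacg
Cd36: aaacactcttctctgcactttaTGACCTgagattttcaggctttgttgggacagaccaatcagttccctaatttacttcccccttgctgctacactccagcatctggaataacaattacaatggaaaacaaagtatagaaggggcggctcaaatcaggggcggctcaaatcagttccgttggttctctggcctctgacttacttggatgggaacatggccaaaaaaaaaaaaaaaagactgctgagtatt
Cebpa: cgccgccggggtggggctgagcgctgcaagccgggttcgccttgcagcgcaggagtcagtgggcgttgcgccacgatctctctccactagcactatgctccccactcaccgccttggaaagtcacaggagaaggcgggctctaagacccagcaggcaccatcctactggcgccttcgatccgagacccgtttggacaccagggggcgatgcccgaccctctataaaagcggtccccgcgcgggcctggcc
In Plin2 the match begins 218 bases before the start and in Cd36 228 bases before it, both on the strand opposite to the gene. Among the 7 members with a window (Ppara, Ppard, Cebpa, Cebpb, Cd36, Plin2 and Acsl1, 8 windows in all), Plin2 and Cd36 were the 2 with AGGTCA, which 14% of 32851 promoter windows hold. The PPAR response element, in which AGGTCA is repeated after 1 base of any kind, was in 0 of the 8 windows and in 0.0335% of all windows. The C/EBP element TTGCNNAA was also in 0 of the 8, and in 9.56% of all windows. These are matches of letters in a short window, and say nothing of binding. Fabp4, Fabp5 and Lpl are named here without a window.

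Pparg, the PPAR receptor that is not among the 10, stood apart from the 2 receptors that are. Its processed signal, the scanner software's background-subtracted and dye-normalized brightness, was 3452 in Bmp4cKO-labelled RNA and 765 in control RNA of replicate 1. On replicate 2 it was 3667 and 672. The groups do not overlap, and the mean log2 ratio was 2.27 ± 0.16 (SD, n = 2 arrays; 95% interval 1.95 to 2.59; limma adjusted p = 0.016).

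Ppara encodes the receptor that drives fatty acid oxidation genes in liver and heart. Its brightest probe read 509 in Bmp4cKO-labelled RNA and 501 in control RNA on replicate 1, and 489.7 and 564 on replicate 2. The groups overlap, with ratios of -0.04 and -0.16 and a mean of -0.10 ± 0.09 (95% interval -0.40 to 0.21; limma adjusted p = 0.83). The 3 probes of this gene did not give one answer. All lie on chromosome 15 of mm9, at 85632534 to 85632593, 85632110 to 85632169 and 85637193 to 85637252, in order of brightness. The sources used here do not place them in coding sequence or UTR. The first 30 of their 60 bases are shown because the ratios differ by probe.
Ppara probe 1: aaatgctcctctaggcccctcctttggcag
Ppara probe 2: ctttgaaaacctacaagtcaaggtgtggcc
Ppara probe 3: cctgtaagctgatgaatgtaaagagttaat
Probe 2 read 197 and 147 on replicate 1 and 205 and 211 on replicate 2, Bmp4cKO before control, with a mean ratio of 0.14 ± 0.13. Probe 3, the dimmest, read 146 and 93.3 on replicate 1 and 218 and 141 on replicate 2. Its signals do not overlap between the groups and its mean was 0.49 ± 0.04, with ratios of 0.46 and 0.51. Probe 3 begins 4659 bases beyond probe 1, and probe 2 begins 424 bases before probe 1. With the mean of the 3 probes in place of the brightest, Ppara was at 0.18 (limma adjusted p = 0.56), so its direction depends on the probe.

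Ppard encodes the broadly expressed PPAR delta, and its probe lies on chromosome 17 from 28438298 to 28438357. The RNA labelled Bmp4cKO had signals of 1295 and 1670.1 on replicates 1 and 2 and the control RNA 1499 and 1863. Within each array the RNA labelled Bmp4cKO was the dimmer, although the groups overlap across arrays. The ratio was -0.17 on both arrays (95% interval -0.47 to 0.12; limma adjusted p = 0.62). The interval covers folds from 0.72 to 1.09.

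The C/EBP factors act beside PPARG in fat cells, Cebpb early and Cebpa later. For Cebpa (probe on chromosome 7, 35906517 to 35906576) the RNA labelled Bmp4cKO read 552 and 765 on replicates 1 and 2, and the control RNA 382 and 389. Both Bmp4cKO values lie above both control values. The ratios were 0.53 and 0.89, the mean 0.71 ± 0.25 or 1.63-fold (95% interval 0.35 to 1.07; limma adjusted p = 0.095), and 97.9% of all genes had a lower mean. Cebpa passed in 1 alternative, a prior with a trend on intensity, at an adjusted p of 0.037, while its adjusted p ran from 0.037 to 1 over the 10 alternatives that refit the scanner values.

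Cebpb (chromosome 2, 167515828 to 167515887) had signals of 2487 in Bmp4cKO-labelled RNA and 2513 in control RNA on replicate 1. Replicate 2 gave 5423 and 2722. A single RNA, that labelled Bmp4cKO on replicate 2 and carrying the red dye, was high, and the other three were alike. The ratios were 0.00 and 0.99, for a mean of 0.49 ± 0.70 (95% interval -0.15 to 1.14; limma adjusted p = 0.48). Without replicate 2 the value is 0.00. Array, sex label and dye changed together between the replicates and cannot be told apart. Within replicate 2 the Bmp4cKO-labelled and control-labelled RNAs also differed in sex-linked signals.

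Lpl encodes lipoprotein lipase, which releases fatty acids from circulating lipoproteins at the vessel wall. The brighter probe (chromosome 8, 71430267 to 71430326) read 2214 and 2642 in the RNA labelled Bmp4cKO on replicates 1 and 2, and 2738 and 3551 in the control. Both Bmp4cKO values lie below both control values. Its mean ratio was -0.34 ± 0.18 (-0.22 and -0.46 on the arrays; 95% interval -0.67 to -0.01; limma adjusted p = 0.33), opposite to Bmp4. Its unadjusted limma p was 0.045, and 0.056 with plain background subtraction. The second probe (71425050 to 71425109) had 901 and 943 against 1179 and 1201, also without overlap, and a mean of -0.32 ± 0.06. The probes, whose starts are 5217 bases apart, thus gave like values.

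Cd36 encodes a scavenger receptor that takes up long-chain fatty acids, and its probe is on chromosome 5 from 17288600 to 17288659. On replicate 1 it read 467 in Bmp4cKO-labelled RNA and 437 in control RNA, and on replicate 2 463 and 319. The groups do not overlap, with the 2 Bmp4cKO-labelled values close together and the control RNA of replicate 2 the lowest. The ratios were 0.05 and 0.50, with a mean of 0.27 ± 0.32 (95% interval -0.12 to 0.67; limma adjusted p = 0.53).

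Fabp4 and Fabp5 encode fatty acid binding proteins, small carriers of lipids within the cell, the first best known from fat cells and the second from epidermis. The Fabp4 probe is on chromosome 3 from 10204452 to 10204511. Its signals were 6202 and 6621 on replicate 1, Bmp4cKO before control, and 9977 and 6971 on replicate 2. As for Cebpb, 1 RNA was high, that labelled Bmp4cKO on replicate 2, and the groups overlap. The ratios of Fabp4 had opposite signs, -0.02 and 0.43, with a mean of 0.20 ± 0.32 (95% interval -0.19 to 0.60; limma adjusted p = 0.67). Fabp5 (chromosome 3, 10016185 to 10016244) read 18631 and 16823 on replicate 1 and 25889 and 18786 on replicate 2. Here the RNA labelled Bmp4cKO was the brighter on both arrays, with overlap across arrays. The mean of Fabp5 was 0.32 ± 0.22, from 0.17 and 0.48 (95% interval -0.02 to 0.67; limma adjusted p = 0.38).

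Acsl1 encodes a long-chain acyl-CoA synthetase, which activates fatty acids for storage or oxidation. Its brighter probe (chromosome 8, 47621232 to 47621291) had 1732 and 1776 on replicate 1 and 2026 and 2309 on replicate 2, Bmp4cKO before control. The groups overlap, and the mean was -0.10 ± 0.13 (-0.01 and -0.19; 95% interval -0.41 to 0.22; limma adjusted p = 0.84). A dimmer probe (47619774 to 47619833) had a mean of -0.17 ± 0.01.

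Plin2 encodes perilipin 2, a coat protein of lipid droplets made in most cell types. The probe (chromosome 4, 86302847 to 86302906) read 13877 and 13245 in the RNA labelled Bmp4cKO on replicates 1 and 2 and 9858 and 9289.7 in the control RNA. Both Bmp4cKO values exceed both control values. Plin2 had the closest agreement between arrays among the members above 0, with ratios of 0.57 and 0.43. Its mean was 0.50 ± 0.10, or 1.41-fold (95% interval 0.19 to 0.81; limma adjusted p = 0.14), and 96.1% of all genes had a lower mean.

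**Figure D2:**
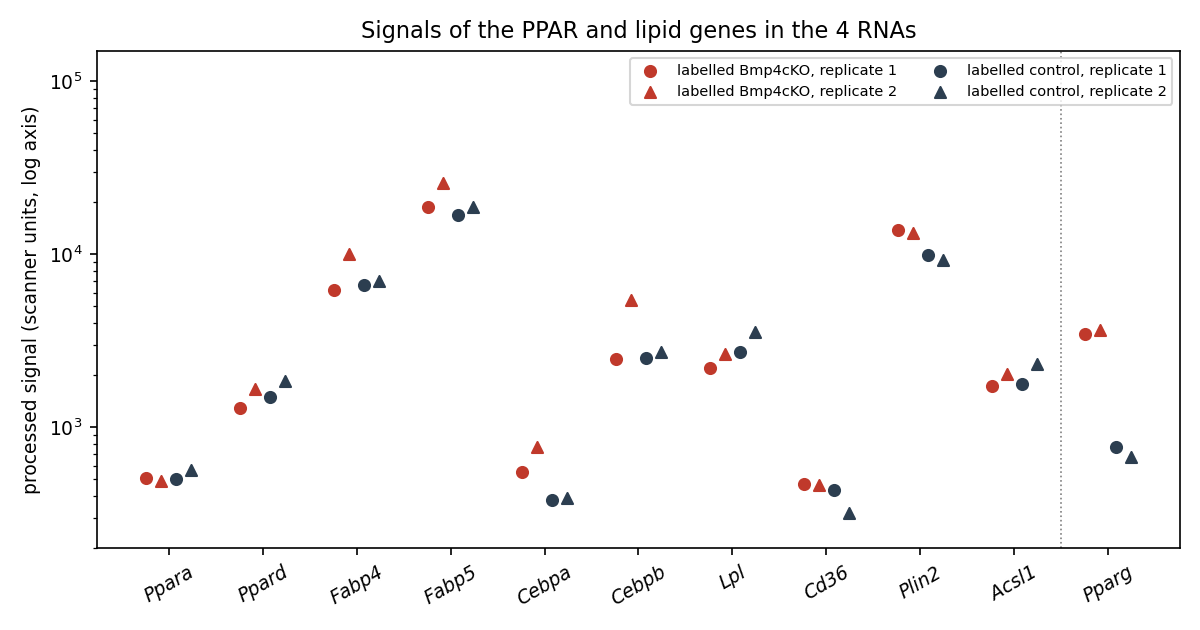
Processed signal of the probe used for each member and, right of the dotted line, for Pparg, on a log axis in scanner units; red marks are RNAs labelled Bmp4cKO, dark marks RNAs labelled control, circles replicate 1 and triangles replicate 2. Signals of different genes come from different probes and are not comparable, and the red and dark marks are fully apart for Cebpa, Cd36 and Plin2 (red above), for Lpl (red below) and for Pparg.

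By these signals 3 members, Cebpa, Cd36 and Plin2, lay higher in both RNAs labelled Bmp4cKO than in both control RNAs and 1, Lpl, lower, while the other 6 overlapped. Over all genes 34.1% did not overlap, 16.4% with higher and 17.7% with lower Bmp4cKO-labelled signals, so the share of members, 4 of 10, is near that of genes at large. Processed signals are not scaled between arrays, and the ratios within an array carry the comparison.

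Other genes of PPAR signalling and lipid metabolism were taken from fixed lists. Of the 15 PPAR partners and coregulators Pparg alone was called, and the median was -0.09. Rxra, a retinoid X receptor gene and DNA-binding partner of the PPARs, was at 0.14 and Rxrb at -0.22. Among 6 C/EBP and lipogenic transcription factors 2 were higher and 1 lower at an unadjusted p under 0.05 (limma), beside 7.15% and 7.37% of all genes. None of the 6 was called, and the median was 0.07. The largest value there was that of Cebpd, at 0.56 and 1.82 on the arrays, on average 1.19 ± 0.89 (limma adjusted p = 0.16), followed by Klf15 at 0.59 ± 0.07.

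The median of 18 fatty acid oxidation genes was 0.11. On both arrays 8 of the 18 lay above 0 and 3 below it, beside 28.2% and 30.6% of all genes. At an unadjusted p under 0.05 (limma) 5 were higher and 0 lower, beside 7.15% and 7.37% of all genes. Pdk4, which restrains glucose oxidation, was at 0.95 ± 0.48 and Acaa2, a thiolase of beta oxidation, at 0.76 ± 0.04 (limma adjusted p = 0.056), neither of them called.

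In the 3 remaining lipid lists no gene was called (limma, adjusted p under 0.05). Of 22 genes of fatty acid binding and uptake, 5 had an unadjusted p under 0.05 (limma). These were 4 higher and 1 lower, beside 7.15% and 7.37% of all genes. The median of the 22 was 0.10, and Acsl4 at 0.58 and Fabp2 at 0.47 had the largest values. Of 14 lipid droplet and lipolysis genes, 3 reached that level, all higher, and the list median was 0.06. Dgat2, which makes triglyceride, was at 0.61 and G0s2 at 0.47. Of 10 fatty acid synthesis genes, 3 reached it, 1 higher and 2 lower, and the list median was -0.09. Me1 was at 0.63 and Scd2 at -0.39.

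Urothelial genes gave calls where the members gave none. Of 30 genes measured 8 were higher and 0 lower (limma, adjusted p under 0.05), the median was 0.55, and 22 lay above 0 on both arrays. The 2 below 0 on both arrays were Shh, a signal of the urothelium to the mesenchyme, at -0.71, and Cldn3, a tight junction gene, at -0.60, neither called. Without Pparg, which that list holds, 7 of 29 were called and the median was 0.54. Upk1b, Upk3a and Upk2, which encode uroplakins of the urothelial surface, had means of 3.72 ± 0.82, 2.48 ± 0.42 and 2.41 ± 0.76. Of the members, 4 of 10 lay above 0 on both arrays. The share of urothelial genes above 0 on both arrays, 73.3%, was not particular to them. It was 75% of endothelial genes (12 of 16), 72.7% of smooth muscle genes (8 of 11) and 28.2% of all genes. Nor were calls particular to urothelial genes, as 3 of 11 smooth muscle genes were also called higher. Whether the difference between the urothelial genes and the members is larger than that of any other genes was not tested.

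Fat precursor genes did not all go one way. Of 13 measured, 1 was lower and 0 higher (limma, adjusted p under 0.05), and the median was 0.09 (0.08 and 0.12 on the arrays). On both arrays 7 lay above 0 (53.8%, beside 28.2% of all genes) and 3 below it (23.1%, beside 30.6%). At an unadjusted p under 0.05 (limma) there were 5, of which 4 were higher and 1 lower, beside 7.15% and 7.37% of all genes. The one called was Dpp4, a surface peptidase of early fat progenitors that other cells also make, which fell by 1.28 ± 0.34 on the log2 scale (limma adjusted p = 0.037). Of others on that list, Icam1 was at 0.76 ± 0.94 and Ebf1, a transcription factor gene of the fat lineage, at 0.75 ± 0.35, neither called. Prdm16 was at 0.58, Pdgfra at 0.41, Cd34 at 0.32, Zfp423 at 0.12 and Dlk1 at 0.03, none of them called. The 3 below 0 on both arrays were Dpp4, Ebf2 at -0.18 and Ly6a at -0.12, and Pdgfrb was at 0.00.

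Mature adipocyte genes gave no call. Of 15 on the list 8 were measured, and 7 were not well above background in any channel: Adipoq, which encodes adiponectin, Lep, Cfd, Cidea, Cidec, Pck1 and Ucp1. Adipoq read 3.91 and 6.20 in the RNAs labelled Bmp4cKO and 5.51 and 5.53 in the control RNAs. Of the 8 measured 1 was higher and 1 lower at an unadjusted p under 0.05 (limma). None of the 8 was called, the median was -0.10, and Adrb3 at -0.52 and Thrsp at 0.39 had the largest values. Thrsp was well above background in the control RNA on 1 array only. The summed signal of the 8 was 2801 and 2753 in the RNAs labelled Bmp4cKO and 2886 and 3216 in the control RNAs. Such a sum adds probes of unlike brightness, is led by the brightest, and is not scaled between arrays.

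**Figure D3:**
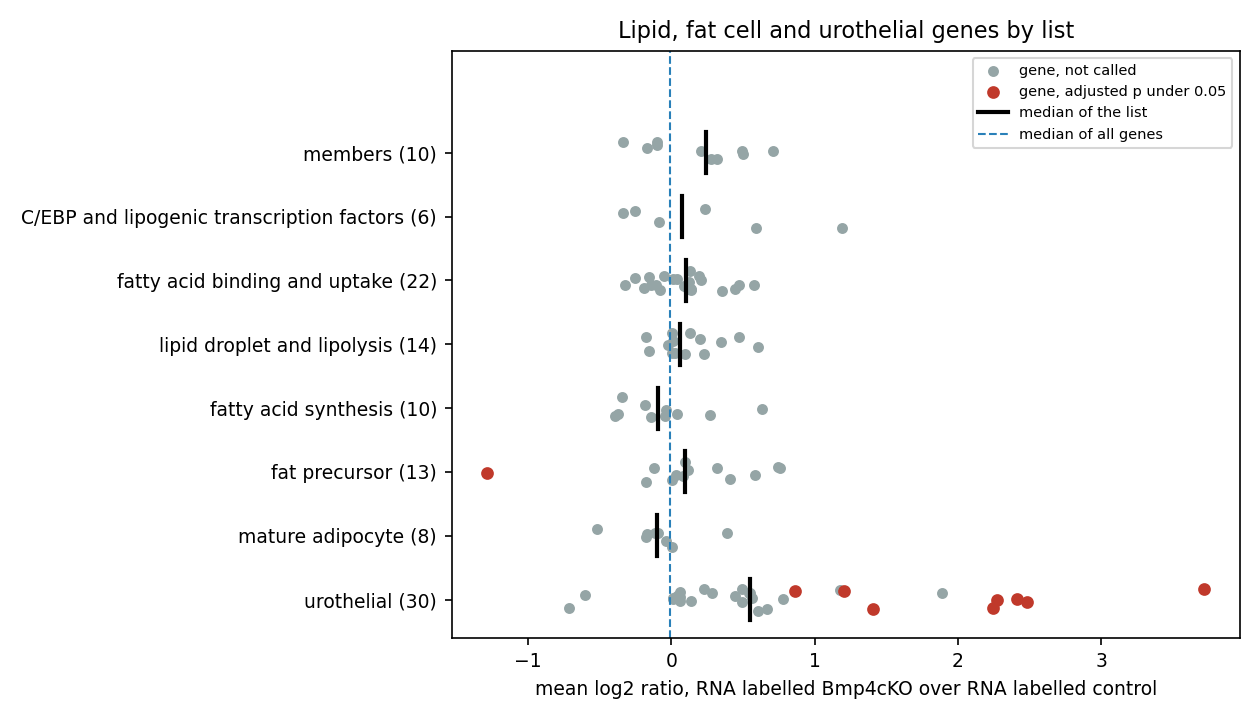
Mean log2 ratio of each measured gene of 8 lists, Bmp4cKO-labelled over control-labelled RNA, by list, with the number measured in brackets; red marks passed the limma test, black bars are list medians and the dashed line is the median of all genes, -0.01. The urothelial list holds 8 of the red marks, Pparg among them, and the members hold none. The smooth muscle list, with 3 genes called, is not drawn.

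Markers of other cells that can make these lipid genes are given beside them, and their part in the member values was not tested. In this bulk tissue fewer cells of a type and less RNA per cell cannot be told apart. Of 16 endothelial genes 6 were higher and 1 lower at an unadjusted p under 0.05 (limma), beside 7.15% and 7.37% of all genes. None of these 16 was called, with a median of 0.27, and Sox17 at 0.66 and Cldn5 at 0.62 had the largest values. Their summed signal was 64900.3 and 82369 in the RNAs labelled Bmp4cKO against 56330.4 and 59630 in the control RNAs, in the order of the replicates. Of 15 macrophage genes 3 were higher and 1 lower at an unadjusted p under 0.05 (limma). None of these 15 was called, with a median of 0.09, Ptprc at -0.80 and Cd14 at 0.62. Their summed signal ran from 18033 to 18141 in the RNAs labelled Bmp4cKO and from 16892 to 17795 in the control RNAs. The endothelial and macrophage sums have the same limits as that of the adipocyte genes.

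Of 11 smooth muscle genes 3 were higher and 0 lower, with a median of 0.43: Myh11 at 2.48 ± 0.90, Actg2 at 2.31 ± 0.85 and Cnn1 at 2.14 ± 0.58. Of 13 kidney genes 5 were lower and 0 higher, with a median of -0.34, among them Wnt9b at -1.97 ± 0.51, Wt1 at -1.34 ± 0.22, Ret at -1.20 ± 0.05 and Lhx1 with -1.06 ± 0.17 (limma, adjusted p under 0.05). Smooth muscle and urothelial markers of the labelled tissue were thus measured, with 11 of 12 and 30 of 31 genes passing the filter on dim probes.

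**Figure D4:**
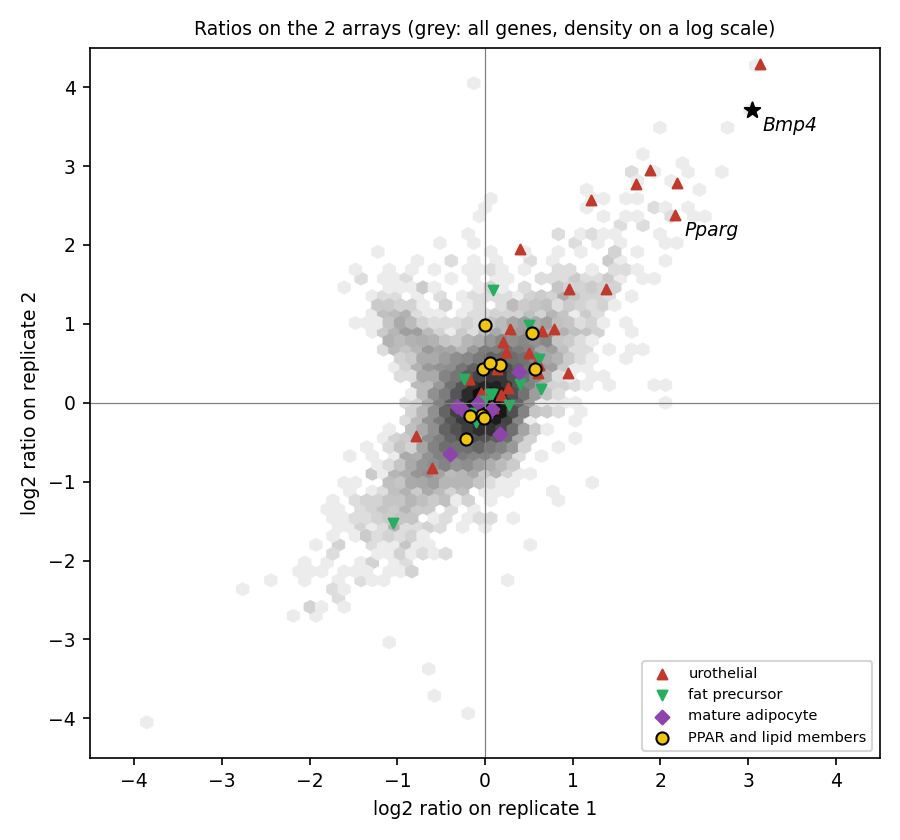
Log2 ratio on replicate 1 (horizontal) against replicate 2 (vertical), Bmp4cKO-labelled over control-labelled RNA, for all 21977 genes (grey, density on a log scale), urothelial, fat precursor and mature adipocyte genes, the 10 members and Bmp4 (star). Several urothelial genes lie far along the upper right diagonal with Bmp4 and Pparg, while the members stay within 1 of 0 on both arrays.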

How the data were processed

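Ureter RNA was hybridised to 2 two-colour arrays. Per the file headers, the authors scanned them and quantified 44397 spots per array with Agilent Feature Extraction 10.7.3.1, with probe positions in mm9. The deposited spot, background and processed values are intensities on a linear scale, and the log ratio column is in log10, red over green, per the file headers. In the authors' value table each probe has 1 value per array, treated as a score. Set against the scanner values it proved a signed fold, within 0.01 (log2) in size for 99.6% and 99.5% of probes above background in all channels, and with a median of 1 in both columns. Its sign follows red over green on the first array and the inverse on the second, so both columns run opposite to the dye labels' Bmp4cKO over control. The order of its ratio is not stated with the values, but the sample titles read Bmp4cKO vs control. Read in that order, its signed folds put Bmp4 (-8.16 and -13.9) and Tbx18 (-1.95 and -2.04) lower in Bmp4cKO.

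Mean signal minus median local background was corrected with normexp (offset 50) and normalized within arrays by loess in limma 3.58.1 (R 4.3.3), giving control spots no weight. Plain subtraction was run as an alternative. Outlier spots, 231 and 235, were left out, and spots of a probe averaged. No member probe was saturated. A probe was kept where well above background in both RNAs of a genotype label, and a gene was its brightest kept probe. Of the probes, 31001 were named through RefSeq (GRCm38.p6). Ratios were fitted with lmFit and eBayes (1 residual and 4.03 prior degrees of freedom) and adjusted by Benjamini-Hochberg over 21977 genes. The fit was tested on simulated data. The number of arrays, 2, limits the precision.

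Members, gene lists and alternatives were chosen with earlier results of these data known. The lists were described by counts and medians, with no set test. Named were all members, Bmp4, Tbx18, Pparg and sex-linked genes, of each other list up to 4 called genes by size, or, with none called, its 2 largest changes. The list gene nearest to Pparg and some genes under the rule are not reported here. Further genes named beside them (Shh, Cldn3, Rxra, Rxrb, Klf15, Pdk4, Acaa2, Icam1, Ebf1, Prdm16, Pdgfra, Cd34, Zfp423, Dlk1, Ebf2, Ly6a, Pdgfrb and the adipocyte markers at background) were chosen after their values were seen.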

Additional observations from a re-analysis of the deposited data

Results flagged for a closer look

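The arrays differ in their sex labels and dye orientation, and some values went in opposite directions on them. Replicate 2 minus replicate 1 was 1.00 for Cebpb (limma adjusted p of that difference = 1) and 0.45 for Fabp4 (limma adjusted p = 1). Both genes were on average brighter in red than in green, by a log2 of 0.50 and 0.23. The residual of that fit holds the genotype difference, which limits it. For list medians the difference was 0.43 over the members, 0.17 for fatty acid binding and uptake and -0.089 for fatty acid synthesis, and it was not tested.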

How the results depend on the processing

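Of the members, 9 kept their direction under the 10 alternatives that refit the scanner values. The exception was Ppara, at 0.18 with the mean of its probes. None was called (limma, adjusted p under 0.05) except with a prior with a trend, where 1 was, Cebpa. At an unadjusted p under 0.05 there were 3 members, but 2 with plain background subtraction or a normexp offset of 10, 4 with a trended prior or no filter on dim probes, 1 with median centring and 0 without normalization. No member reached the 2-fold rule under any of the 13 alternatives, and the lowest and highest counts without replicate 1 or without replicate 2 were both 0. Leaving out an array leaves no residual degree of freedom, so counts of calls were not run there.

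Over all genes, the 420 called (195 higher, 225 lower) became 727 (339 and 388) with plain background subtraction, 695 (325 and 370) with a normexp offset of 10, 1282 (611 and 671) with a trended prior, 0 (0 and 0) with median centring and 1 (0 and 1) without normalization. An unadjusted p under 0.05 was then held by 1760 genes with median centring and 108 without normalization, where the medians of all genes were -0.73 and 0.70 on the arrays. Pparg was at 2.29 and 2.27 in these 2 settings, with adjusted p of 0.30 and 1. The cause was not tested.

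In the authors' value table, with its sign, 636 genes were called, 338 higher, and by construction each direction turned. The values there were 0.090 for Ppara, 0.18 for Ppard, -0.21 for Fabp4, -0.30 for Fabp5, -0.75 for Cebpa, -0.49 for Cebpb, 0.37 for Lpl, -0.32 for Cd36, -0.50 for Plin2, 0.11 for Acsl1, -2.32 for Pparg, -3.41 for Bmp4 and -0.99 for Tbx18.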
